A study of Bos taurus with 6 samples.

Results

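The tubulin isotypes described here are the rows of the RPKM table whose symbol is TUBA1A, TUBA1B, TUBA1C, TUBA4A, TUBB, TUBB2A, TUBB2B, TUBB4B, TUBB6 or TUBG1. They came to 14 rows of the 20707 in the table, and 9 of the 10 symbols had at least 1 row. No row carried the symbol TUBB2B, although the annotation names 1 of the rows with the symbol TUBB2A as bovine TBB2B. TUBA1B, TUBA1C, TUBA4A, TUBB and TUBB2A each labelled 2 rows, which are told apart below by their Ensembl identifiers.

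Microtubules are polymers of a dimer of alpha- and beta-tubulin, and each of these proteins is encoded by several genes, the isotypes, whose products differ mostly in their acidic carboxy-terminal tails. Gamma-tubulin does not enter the polymer wall but sits in a ring-shaped complex from which microtubules start. In the oocyte, microtubules build the meiotic spindle without centrioles. The amount of tubulin mRNA is also under feedback: when free tubulin dimers are plentiful, the adaptor TTC5 recognises nascent tubulin at the ribosome and the mRNA being translated is degraded.

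RNA was measured in single oocytes of Bos taurus taken from abattoir ovaries. The 3 GV libraries come from oocytes in the germinal vesicle stage, meaning meiotic prophase arrest, collected when follicles were aspirated. The 3 MII libraries come from oocytes matured in culture for 24 hours to metaphase of the second meiotic division. Neither stage carried a transgene or a treatment, no strain or age is given, and the MII oocytes matured outside the ovary. Stage follows the stage label of each sample, since the source label describes every sample as matured in vitro. No sample title matches the columns GV14c and MII15c, which entered by the stage in their names, and the titles GV15c and MII14 match no column. The letter c and the number of those 2 columns are thus known from the column names alone. The labels explain neither 14 and 15 nor the letter c, and do not say whether libraries come from different animals, so every p-value measures only the spread between these libraries.

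The values are RPKM, a read number divided by gene model length and by library size. Levels of different genes are thus set side by side per length. Reads came from poly(A)-primed cDNA, and how evenly they cover a gene model was not tested. The annotated model is 3073 nt long for the main TUBA1B row and 1554 nt for the higher TUBA1C row. Orders, sums, shares and ratios across genes below assume like coverage of such models. Depth recovered from the low values was 29.92, 26.91 and 20.22 M reads in GV14, GV14c and GV15, and 31.11, 21.27 and 32.55 M in MII14c, MII15 and MII15c. At a model length of 1350 nt, close to a tubulin coding sequence, 1 RPKM stands for 27.3 to 43.9 reads. Amplified reads are not independent molecules, so read numbers given below cover counting error only. Of 15 oocyte markers, 14 were in the table and 13 or 14 reached 1 RPKM in each library. Of 21 cumulus and granulosa markers, 20 were in the table, 7 to 9 reached 1 RPKM, and their sum was 113 to 178 RPKM in GV and 116 to 125 in MII, with AMHR2, AREG, EREG, LHCGR and PTX3 at 0 throughout. The sum hides members that differ between stages: STAR read 135.6, 100.7 and 67.1 RPKM in GV and 39.7, 37.3 and 29.3 in MII, and HAS2 read 18.3, 18.9 and 11.6 in GV and 55.4, 58.4 and 64.8 in MII. Of 12 blood cell markers, 9 were in the table with sums of 15.1 to 33.2 RPKM in GV and 1.82 to 9.09 in MII, and ALAS2, CD14 and HBB were at 0 throughout. The part of such cells in the tubulin levels was not tested.

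The comparison asks how tubulin mRNA levels differ between the arrested and the matured oocyte. Of 2 TUBA1C rows, the higher was the leading alpha-tubulin mRNA of both stages. It was 1.76-fold lower in MII, a difference that did not pass in 12 of 18 alternative fits. The other TUBA1C row overlapped between stages. TUBA1B, at 385 RPKM in GV, was 18.5-fold lower. The beta isotypes TUBB2A and TUBB4B were 9.87-fold and 20.0-fold lower, from far smaller GV levels. TUBG1, the gamma-tubulin of most cells, was 7.93-fold lower. Libraries were primed on poly(A) tails, so fewer transcripts and shorter tails cannot be told apart in any of these differences.

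Of the 14 rows, 11 had a mean of at least 1 RPKM and were tested for MII against GV with limma on log2(RPKM + 1). P-values were adjusted over all 8671 genes tested by Benjamini-Hochberg, with a threshold of 0.05. A log2 change on this scale understates the change of low genes. In MII, 9 rows were lower, 0 were higher and 2 did not pass, against 26.9% of all tested genes lower and 13.4% higher. The same 9 rows had no overlap between stages, all with MII below, against 32.1% of all tested genes with MII below and 19.8% with MII above. The median log2 change of the 11 rows was -1.90 and that of all tested genes -0.16. TUBB4B, TUBB6 and TUBA4A reached 1 RPKM in no MII library, and the TUBA1B row ENSBTAG00000002169 averaged 0.791 RPKM in MII. These rows thus entered the test through their GV level alone, and the count over the rows that entered is a description only. Of the 9 calls, 5 were kept in every alternative that tested them, and those of TUBA1C, TUBB, TUBB6 and TUBA4A were lost in some.

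**Figure D1:**
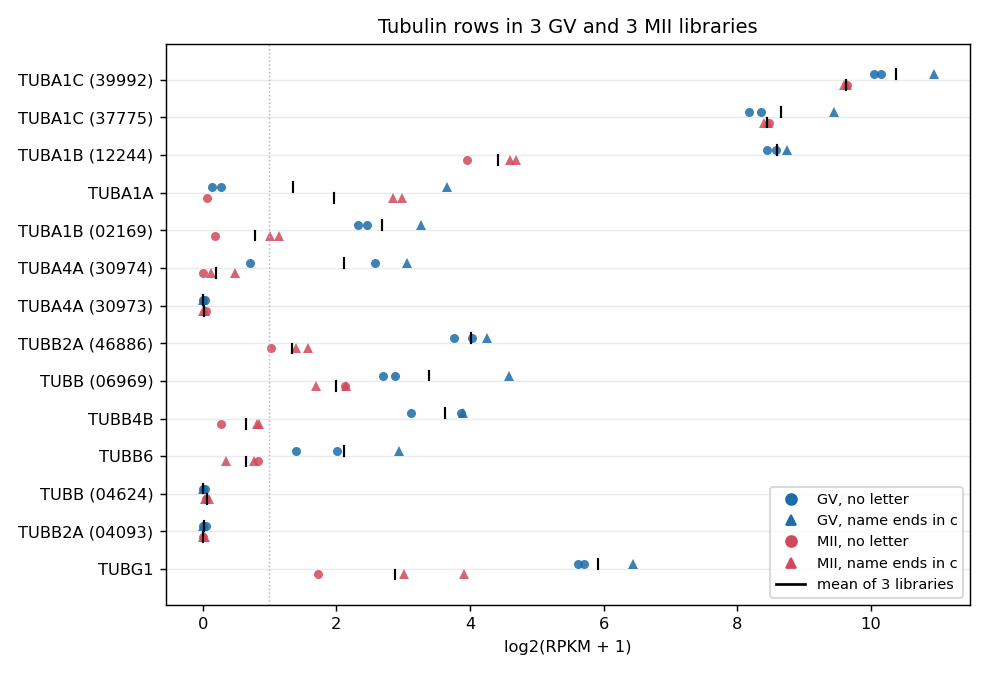
Level of each tubulin row in each library as log2(RPKM + 1); blue is GV and red is MII, triangles are libraries whose name ends in c, black ticks are means of 3 libraries, and the dotted line stands at 1 RPKM. Rows that share a symbol are told apart by the last digits of their Ensembl identifier. The first TUBA1C row leads in all 6 libraries, and the coding TUBA1B row sits between 346 and 427 RPKM in GV and between 14.6 and 24.8 in MII.

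The alpha isotypes spanned the widest range of levels. The first TUBA1C row, ENSBTAG00000039992 (annotated as bovine TBA1C; chr5:30728352-30735852, minus strand, 4 coding exons), read 1138, 1963 and 1051 RPKM in GV14, GV14c and GV15. In MII14c, MII15 and MII15c it read 797, 797 and 772 RPKM. All GV libraries lay above all MII libraries, and GV14c stood well above the other GV libraries. The mean was 1384 ± 503 RPKM in GV and 788.5 ± 14.5 in MII (SD, n = 3), a log2 change of -0.75 ± 0.26 (SE) with a limma adjusted p of 0.0440. TUBA1C ranked 25 of all rows by mean level in GV and 45 in MII. Its call was lost in 12 of 18 alternatives, whose adjusted p ran from 0.00527 to 0.279. Without GV14c its log2 change was -0.47 (limma adjusted p = 0.0993), and the call was also lost without GV14 (0.0599), MII14c (0.0864), MII15 (0.0735) or MII15c (0.127).

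A second row with the symbol TUBA1C, ENSBTAG00000037775 (chr5:30713144-30723571, minus strand, 4 coding exons), lies 4781 nt from the first. It read 289, 696 and 327 RPKM in the GV libraries and 351, 353 and 336 in the MII libraries. The stages overlapped, since GV14 and GV15 lay below all MII libraries and GV14c above them. Its log2 change was -0.22 ± 0.31 (SE; limma adjusted p = 0.612) and took the other sign without GV14c (0.17). The ratio of the second to the first row was 0.254, 0.354 and 0.311 in GV and 0.440, 0.443 and 0.436 in MII, so the stages did not overlap in it. How reads that match both rows were shared out is not given in the sources used here, so a value for either row is uncertain. The same holds for the other tubulin rows, since isotypes of a class have closely similar coding sequences.

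Both TUBA1C rows were close to equal among the MII libraries. The coefficient of variation was 1.84% for the first and 2.60% for the second row in MII, against 36.4% and 51.4% in GV. Among the 633 genes that averaged 100 RPKM or more in MII the median was 18.3%, and 0.948% and 1.42% of them were at or below these rows. The 743 such genes in GV had a median of 17.7%.

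TUBA1B was the second alpha isotype of the GV oocyte and showed the largest difference among the tubulin rows on the log2(RPKM + 1) scale. By the ratio of means, TUBA4A (26.8-fold) and TUBB4B (20.0-fold) differed more, from far smaller GV levels. The TUBA1B row ENSBTAG00000012244 (annotated as bovine TBA1B; chr5:30864529-30869460, plus strand, 4 coding exons) read 346, 427 and 381 RPKM in the GV libraries. In the MII libraries it read 23.1, 14.6 and 24.8 RPKM. The stages were far apart, and the GV spread was small beside the difference. The mean fell from 385 ± 40.7 to 20.8 ± 5.48 RPKM (SD, n = 3), a log2 change of -4.17 ± 0.24 (SE; limma adjusted p = 1.54e-05). The call was kept in all 18 alternatives, with log2 changes from -4.33 to -3.86. By mean level TUBA1B ranked 151 in GV and 2370 in MII.

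A second row with the symbol TUBA1B, ENSBTAG00000002169 (chr7:1590817-1592152, plus strand), has no coding sequence in the annotation. It read 4.01, 8.63 and 4.51 RPKM in GV and 1.21, 0.142 and 1.02 in MII, with no overlap. The fall had a log2 change of -1.90 ± 0.39 (SE; limma adjusted p = 0.00514) and was kept in every alternative that tested it.

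TUBA1A, the alpha isotype best known from neurons, is encoded on the same stretch of chromosome 5 (ENSBTAG00000001489, chr5:30821251-30825700, plus strand). It read 0.105, 11.6 and 0.208 RPKM in GV14, GV14c and GV15, which stand for 6, 593 and 8 reads. In MII14c, MII15 and MII15c it read 6.21, 0.049 and 6.91 RPKM, or 368, 2 and 428 reads. It was high in the 3 columns named with the letter c and near 0 in the 3 without it, whichever the stage, although 2 of the 3 named with c match no title. The log2 change between stages was 0.61 ± 1.02 (SE; limma adjusted p = 0.664). A fit that weights each library gave 2.25 (limma adjusted p = 0.00453), and a fit with a term for the letter c gave -0.44 (limma adjusted p = 0.268).

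TUBA4A is an alpha isotype whose gene does not encode the carboxy-terminal tyrosine that other isotypes carry. Its row ENSBTAG00000030974 (chr2:107921714-107925511, minus strand) read 4.96, 7.36 and 0.639 RPKM in GV, or 218, 291 and 19 reads. In MII it read 0.087, 0 and 0.397 RPKM, or 4, 0 and 19 reads. The stages did not overlap, but GV15 and MII15c had the same number of reads. The log2 change was -1.92 ± 0.56 (SE; limma adjusted p = 0.0229). The call was lost in 7 of the 17 alternatives that tested it, among them without GV14 (adjusted p = 0.0842), GV14c (0.0667), MII14c (0.0584), MII15 (0.0543) or MII15c (0.0534). The other row with this symbol, ENSBTAG00000030973 (annotated as TBA1D; chr2:107936557-107942525, plus strand), had at most 1 read in any library and was not tested.

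The beta isotypes were less abundant than both TUBA1C rows in every library. TUBB2A, ENSBTAG00000046886 (chr23:50390117-50394717, plus strand), read 15.4, 18.1 and 12.5 RPKM in GV and 1.64, 1.04 and 1.98 in MII. No MII library came near the GV range. The mean fell from 15.3 ± 2.75 to 1.55 ± 0.476 RPKM (SD, n = 3), a log2 change of -2.68 ± 0.31 (SE; limma adjusted p = 0.000258), kept in all 18 alternatives. The row that carries the symbol TUBB2A but is annotated as TBB2B, ENSBTAG00000004093 (chr23:50354843-50357631, plus strand), had 1 read in GV15, 1 in MII14c and 0 elsewhere, and was not tested.

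TUBB4B, a widely expressed beta isotype that the annotation still calls TBB2C (ENSBTAG00000025274, chr11:105860101-105862549, minus strand), read 13.6, 13.9 and 7.69 RPKM in GV. In MII it read 0.755, 0.209 and 0.800 RPKM, which stand for 37, 7 and 41 reads. Every MII library was below 1 RPKM. The mean fell from 11.7 ± 3.50 to 0.588 ± 0.329 RPKM (SD, n = 3), a log2 change of -2.98 ± 0.35 (SE; limma adjusted p = 0.000289), kept in all 18 alternatives. The end of its model overlaps that of a gene on the other strand, and whether counting used strand is not given in the sources used here.

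TUBB, the beta isotype of most dividing cells, also called class I beta-tubulin (ENSBTAG00000006969, annotated as TBB5; chr23:28101727-28105320, minus strand), read 5.50, 23.1 and 6.37 RPKM in GV. In MII it read 3.43, 3.39 and 2.25 RPKM. GV14c was several times the other GV libraries, which lay closer to MII than to it. The mean was 11.7 ± 9.92 RPKM in GV and 3.02 ± 0.669 in MII (SD, n = 3), a log2 change of -1.40 ± 0.49 (SE; limma adjusted p = 0.0474). The call was lost in 10 of 18 alternatives. Without GV14c the log2 change was -0.80 (limma adjusted p = 0.110), without both columns that match no title -0.65 (0.299), and the call was also lost without MII14c (0.0782), MII15 (0.0668) or MII15c (0.144). A further row named TUBB with a single coding exon, ENSBTAG00000004624 (chr28:3159664-3160998, plus strand), had at most 3 reads in any library and was not tested.

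TUBB6 had the lowest GV mean of the tested beta rows (ENSBTAG00000046337, chr24:43249500-43250798, plus strand, 1 coding exon). It read 3.05, 6.67 and 1.64 RPKM in GV and 0.703, 0.780 and 0.278 in MII, without overlap. The log2 change was -1.47 ± 0.42 (SE; limma adjusted p = 0.0213). It lost its call in 6 of the 17 alternatives that tested it, among them without GV14 (adjusted p = 0.0570), GV14c (log2 change -1.06, 0.0524) or MII15c (0.0839), and without both unmatched columns its log2 change was -0.91 (0.183).

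TUBG1, ENSBTAG00000048152 (annotated as bovine TBG1; chr19:43316471-43321165, plus strand, 11 coding exons), read 51.3, 85.5 and 48.3 RPKM in GV. In MII it read 13.98, 2.30 and 7.04 RPKM. The stages did not overlap, and the MII libraries differed several-fold among themselves. The mean fell from 61.7 ± 20.7 to 7.77 ± 5.87 RPKM (SD, n = 3), a log2 change of -3.04 ± 0.50 (SE; limma adjusted p = 0.00168). The call was kept in all 18 alternatives, with log2 changes from -3.56 to -2.47.

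**Figure D2:**
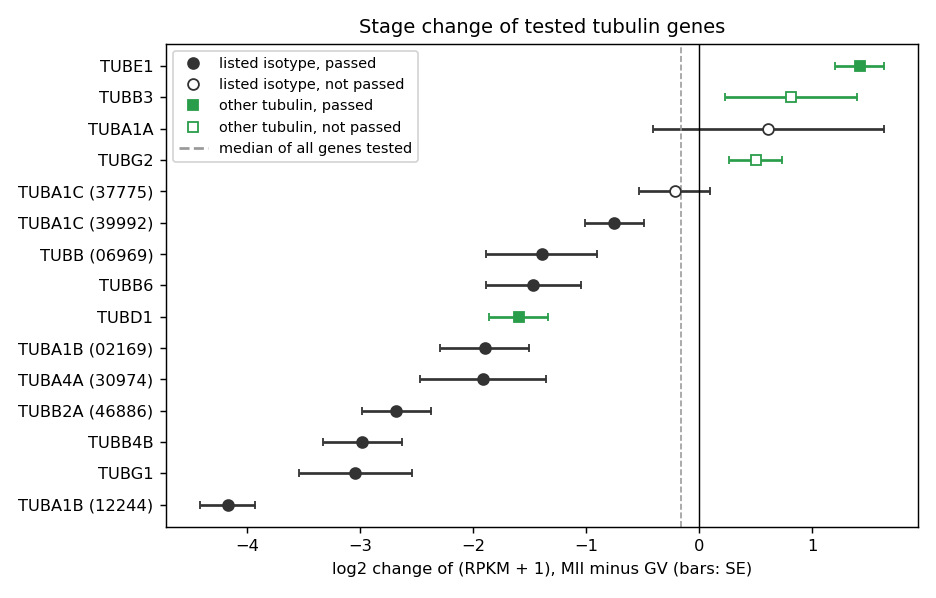
Log2 change, MII minus GV, of the 11 tested tubulin rows (circles) and the 4 other tested tubulin genes (squares) on the log2(RPKM + 1) scale, with the standard error as the bar; filled symbols passed the limma threshold and the dashed line marks the median of all tested genes, -0.16. The coding TUBA1B row stands lowest at -4.17 and TUBE1 highest at 1.42.

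In order of level, the GV oocyte held TUBA1C (first row) alone at the top, then the second TUBA1C row and TUBA1B, whose ranges overlapped. TUBG1 followed, above all beta rows in every GV library. TUBB2A, TUBB and TUBB4B overlapped one another, as did TUBA1B on chromosome 7, TUBA4A, TUBA1A and TUBB6, whose means were lower. In MII the 2 TUBA1C rows were again at the top, and they did not overlap. TUBA1B came next there without overlap with TUBG1. Below it TUBG1, TUBA1A and TUBB overlapped. TUBB2A lay below TUBG1 and TUBB but within the range of TUBA1A, and it overlapped the TUBA1B row on chromosome 7, whose range also overlapped those of TUBB4B and TUBB6.

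Summed over the rows of a class, alpha-tubulin RNA read 1782, 3114 and 1765 RPKM in GV and 1179, 1164 and 1141 in MII, a 1.91-fold lower mean. Beta-tubulin RNA read 37.6, 61.7 and 28.3 RPKM in GV and 6.62, 5.46 and 5.34 in MII, 7.33-fold lower. TUBB3 lies outside the listed symbols, and with it the beta sum read 47.7, 88.4 and 35.2 RPKM in GV and 57.3, 16.5 and 25.4 in MII, a 1.73-fold lower mean with overlap. The alpha sum and the beta sum without TUBB3 did not overlap between stages, and no test was made of a sum over chosen rows. The alpha to beta ratio was 47.4, 50.4 and 62.4 in GV and 178, 213 and 214 in MII. With TUBB3 counted, the ratio was 37.4, 35.2 and 50.1 in GV and 20.6, 70.4 and 44.9 in MII, which overlap.

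The composition of the alpha pool differed between stages mainly in TUBA1B. Its main row made up 18.3 ± 4.07% of alpha RPKM in GV and 1.80 ± 0.482% in MII (SD, n = 3). The first TUBA1C row made up 62.2% in GV and 67.9% in MII, and the second 19.0% and 29.8%. In the beta pool without TUBB3, the mean share of TUBB2A was 38.2% in GV and 27.0% in MII, that of TUBB4B 28.6% and 10.1%, and that of TUBB 24.9% and 52.1%. The shares of TUBB4B and TUBB did not overlap between stages, and those of TUBB2A and TUBB6 did.

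**Figure D3:**
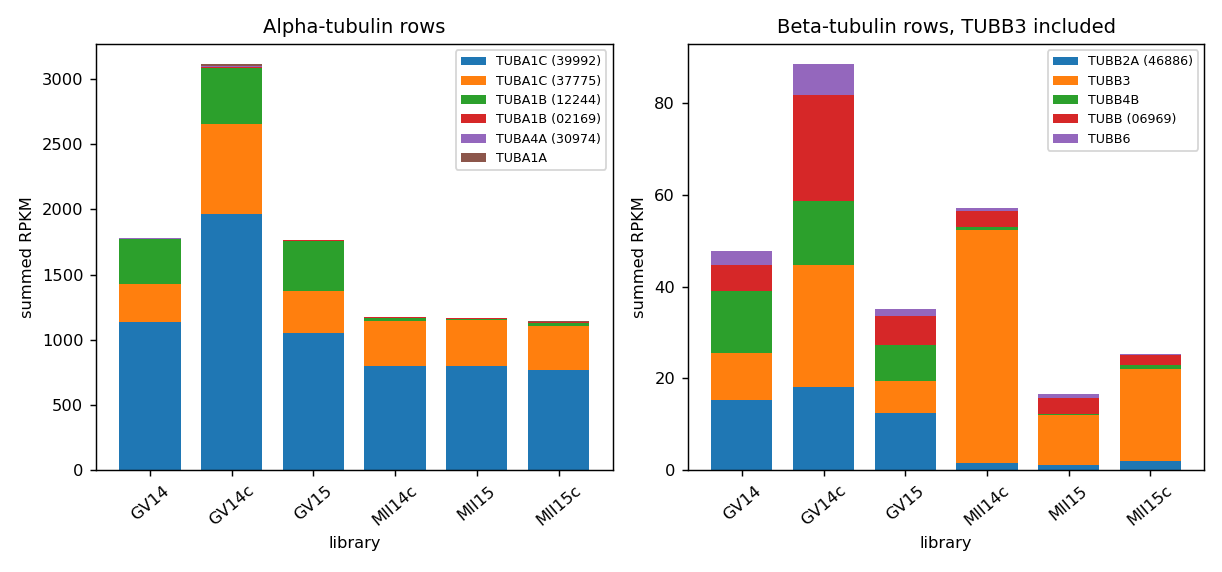
Summed RPKM of the alpha rows (left) and of the beta rows with TUBB3 (right) in each library, stacked by row; rows with a mean below 1 RPKM are left out. The alpha sums of MII are close to equal at 1141 to 1179 RPKM, and TUBB3 takes most of the beta bars in MII.

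Of the other tubulin genes, 11 rows were in the table and 4 passed the level filter. Among these 1 was higher, TUBE1, 1 was lower, TUBD1, and TUBB3 and TUBG2 did not pass. TUBE1 and TUBD1 encode the epsilon- and delta-tubulin of centriole triplets. TUBE1 averaged 47.1 ± 5.72 RPKM in GV and rose to 128 ± 21.6 in MII (SD, n = 3), by 1.42 ± 0.22 on the log2 scale (SE; limma adjusted p = 0.00124). TUBD1 averaged 43.1 ± 9.09 RPKM in GV and fell to 13.5 ± 2.43 in MII (SD, n = 3), a log2 change of -1.600 ± 0.26 (SE; limma adjusted p = 0.00165). These 2 genes, known for the same structure, thus went in opposite directions, and both calls were kept in all 18 alternatives.

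TUBG2, the second gamma-tubulin gene, lies 39278 nt from TUBG1 on chromosome 19. It read 66.5, 84.999 and 50.5 RPKM in GV and 89.1, 96.5 and 95.1 in MII. The stages did not overlap, with MII above, and the log2 change was 0.50 ± 0.23 (SE; limma adjusted p = 0.119). It passed as higher with median-ratio scaling (0.0347), quantile normalization (0.0292), library weights (0.0095) and without GV14c (0.0465). TUBG2 made up 56.5%, 49.9% and 51.1% of the RPKM of both gamma genes in GV and 86.4%, 97.7% and 93.1% in MII. The sum of TUBG1 and TUBG2 read 118, 170 and 98.8 RPKM in GV and 103, 98.8 and 102 in MII, so the sums overlapped while the composition did not.

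TUBB3, known as the beta isotype of neurons, was the most abundant beta-tubulin row of MII. It read 10.1, 26.7 and 6.94 RPKM in GV and 50.7, 11.1 and 20.1 in MII, which overlap. The log2 change was 0.81 ± 0.58 (SE; limma adjusted p = 0.299). It passed as higher in 2 of 18 alternatives, with library weights (0.0268) and with the number 14 or 15 as a block (0.0354). With a term for the letter c the change was 0.31 (limma adjusted p = 0.475), and without MII14c it was 0.25 (0.750). TUBB3 made up 23.7 ± 5.67% of beta RPKM with TUBB3 counted in GV and 78.2 ± 10.7% in MII (SD, n = 3).

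Since TUBA1A followed the letter c and not the stage, a fit with stage and the letter c as terms was made after its levels had been seen, and it gives a description of this split. TUBA1A was 3.15 ± 0.31 higher on the log2 scale with the letter c (SE; limma adjusted p = 0.000454), rank 6 by p among 8671 genes. TUBG1 was higher by 1.25 ± 0.31 (adjusted p = 0.0357). These were 2 of the 11 tested tubulin rows, against 5.73% of all tested genes higher with the letter c and 1.56% lower. TUBB3 was higher by 1.505 ± 0.34 (limma adjusted p = 0.0258). Among tubulin partners the folding factors PDCL3 and TBCB were higher by 2.91 ± 0.27 and 2.20 ± 0.42 (limma adjusted p = 0.000373 and 0.0149). PDCL3 read 3.28, 41.2 and 4.98 RPKM in GV14, GV14c and GV15 and 42.9, 4.92 and 35.7 in MII14c, MII15 and MII15c, the same high and low libraries as TUBA1A. The polyglutamylase TTLL4 and the spindle protein NUSAP1 were also higher (1.68 ± 0.36 and 0.91 ± 0.22; limma adjusted p = 0.0210 and 0.0325), 1 of 11 modifying enzymes and 1 of 30 dynamics genes, and 1 dynamics gene was lower. The summed cumulus and granulosa markers were 153, 116 and 125 RPKM in GV14c, MII14c and MII15c and 178, 113 and 123 in GV14, GV15 and MII15. Summed blood cell markers were 32.5, 9.09 and 4.51 RPKM with the letter and 15.1, 33.2 and 1.82 without it, so they were higher with it in MII but not in GV. Among them only CSF1R and CD3E reached 1 RPKM in any library. CSF1R was higher with the letter within each stage. It read 13.2 RPKM in GV14c against 7.25 and 4.11, and 5.09 and 2.82 in MII14c and MII15c against 0.376. CD3E was not, at 18.6 RPKM in GV14c against 6.50 in GV14 and 28.6 in GV15. In MII14c and MII15c CD3E read 3.653 and 1.427 RPKM, against 1.445 in MII15. The cause of the split was not tested.

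**Figure D4:**
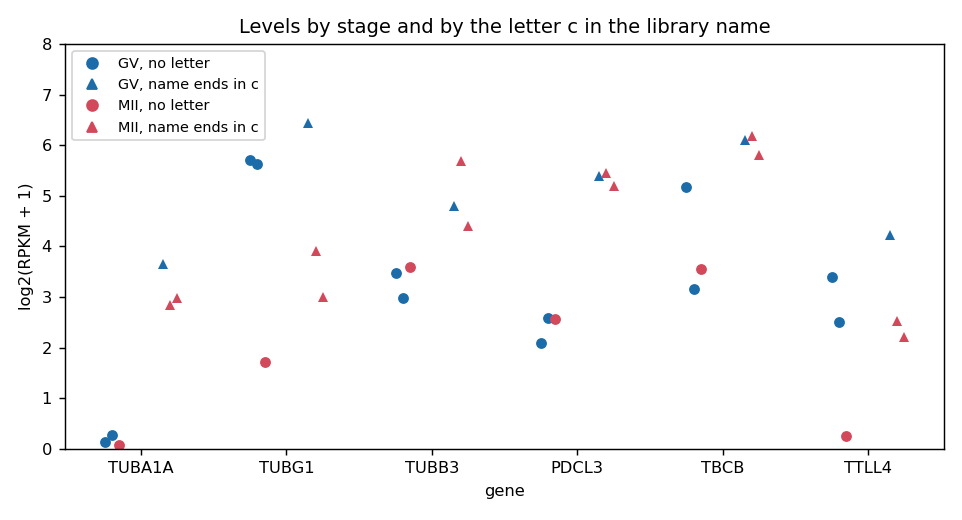
Levels as log2(RPKM + 1) of the 2 tubulin rows, TUBB3 and the partner genes PDCL3, TBCB and TTLL4 that were higher with the letter c; circles are libraries without the letter and triangles those with it, blue for GV and red for MII. TUBA1A sits at 0.049 to 0.208 RPKM without the letter and at 6.21 to 11.6 with it.

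Genes that act on tubulin were read from 4 lists. In the list of tubulin folding, which holds prefoldin, the tubulin cofactors and TTC5, 13 of 16 genes were tested, 7 were lower (53.8%) and 1 was higher (7.69%), against 26.9% and 13.4% of all tested genes, with a median log2 change of -0.86 against -0.16. PFDN1, a subunit of the prefoldin complex that hands unfolded tubulin to the chaperonin, averaged 519.9 ± 21.2 RPKM in GV and fell to 112.1 ± 23.3 in MII (SD, n = 3), a log2 change of -2.22 ± 0.21 (SE). The prefoldin subunits PFDN5 and VBP1 fell from 161.9 to 34.8 and from 79.8 to 17.2 RPKM. TBCE, a cofactor in the last steps of dimer assembly, fell from 165.7 to 51.1 RPKM. The 1 gene that was higher was TTC5, which marks tubulin mRNA for decay: it read 36.1, 56.2 and 40.9 RPKM in GV and 124, 155 and 123 in MII, without overlap. It rose by 1.58 ± 0.23 on the log2 scale (SE; limma adjusted p = 0.000988). The calls of these 5 genes were kept in all 18 alternatives. Of the other genes that were lower, PFDN2 lost its call in 12 alternatives and TBCA in 3. Over the alternatives 5 to 7 folding genes were lower.

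Of the tubulin-modifying enzymes, 11 of 27 in the table were tested, 3 were lower (27.3%), 2 were higher (18.2%) and 6 did not pass (median -0.02), near the 26.9% and 13.4% of all tested genes. Of these, 2 rows carry a symbol of the list but are annotated as another gene, VASH2 as ANGE2 and AGBL2 as FNBP4. Without them 9 were tested, 3 were lower and 1 was higher (median -0.83). CCDC23, an older symbol of SVBP, the partner that vasohibins need to remove the carboxy-terminal tyrosine of alpha-tubulin, fell from 138.5 to 21.0 RPKM (log2 change -2.73 ± 0.28, SE). The row with the symbol VASH2 that was tested rose from 10.5 to 22.0 RPKM (1.00 ± 0.24), but it is the one annotated as ANGE2. Its call was lost without both unmatched columns (limma adjusted p = 0.0951). The row annotated as VASH2 itself, a vasohibin, read 0.826, 1.45 and 0.489 RPKM in GV and 0.754, 0 and 0.247 in MII, and was not tested. SIRT2, a deacetylase of alpha-tubulin, fell from 10.1 to 0.568 RPKM and reached 1 RPKM in no MII library, so it entered the test through GV alone. NAT10, an acetyltransferase of the list whose action on tubulin was not examined here, fell from 145 to 75.1 RPKM, a call lost in 2 alternatives. LRRC49, a subunit of the polyglutamylase complex, rose from 2.95 to 7.91 RPKM, a call lost in 6 alternatives. Further rows share the symbols LRRC49 and STMN1, and the row of highest mean is given.

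Of the microtubule-binding, plus-end and severing proteins, 30 of 38 in the table were tested, 8 were higher (26.7%), 2 were lower (6.67%) and 20 did not pass (median 0.55), against 13.4% and 26.9% of all tested genes. CKAP5, a polymerase that adds tubulin at plus ends, rose from 59.4 to 176.5 RPKM (log2 change 1.51 ± 0.27, SE). DLGAP5 and CKAP2, which stabilise spindle microtubules, rose from 315 to 634 and from 94.4 to 177.8 RPKM. Their calls were lost without both unmatched columns (limma adjusted p = 0.0591 and 0.0922). Both genes that were lower were STMN1, a protein that sequesters free tubulin dimers, from 189 to 60.4 RPKM (-1.69 ± 0.28), and the augmin subunit HAUS6, from 45.8 to 28.3 RPKM (-0.70 ± 0.24; limma adjusted p = 0.0443), whose call was lost in 12 alternatives.

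Of the partners of gamma-tubulin, 7 of 10 in the table were tested, 3 were higher (42.9%), 1 was lower (14.3%) and 3 did not pass (median 0.63), against 13.4% and 26.9% of all tested genes. NEDD1, which brings the ring complex to the spindle, rose from 56.8 to 124.7 RPKM (log2 change 1.13 ± 0.24, SE). NME7 rose from 130 to 232 RPKM and MZT1, a small ring component, from 5.18 to 11.8, the latter a call lost in 3 alternatives. TUBGCP4, a core ring subunit, fell from 15.7 to 5.34 RPKM (-1.49 ± 0.36). TUBG1 and TUBGCP4 were thus lower in MII while the other 3 called partners were higher. Without both unmatched columns the calls of NME7 and TUBGCP4 were lost (limma adjusted p = 0.0728 and 0.0656).

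**Figure D5:**
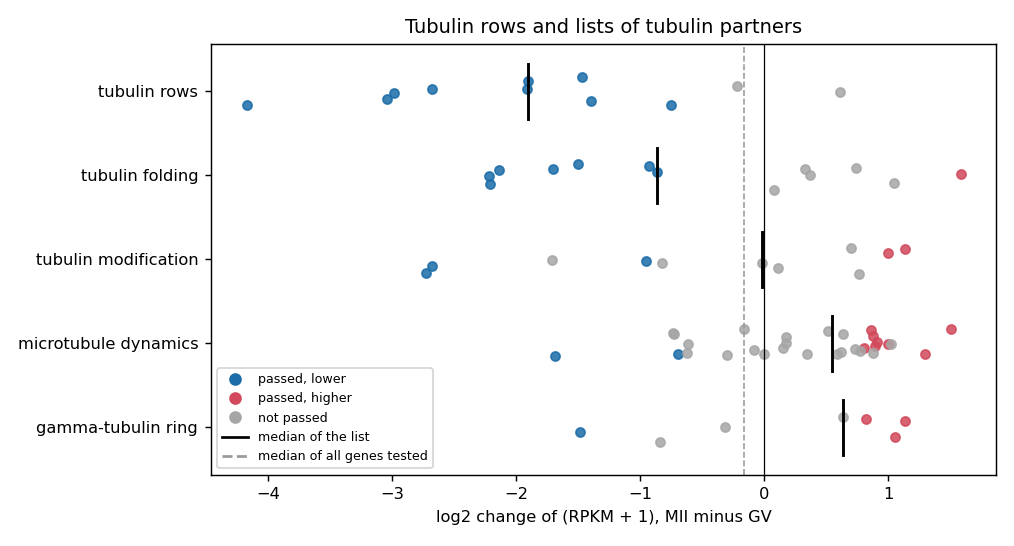
Log2 change, MII minus GV, on the log2(RPKM + 1) scale for each tested tubulin row and each tested gene of the 4 partner lists, spread vertically within a list at random; blue points passed as lower, red as higher, grey did not pass, black bars are list medians and the dashed line is the median of all tested genes. The 2 rows annotated as another gene are among the modification points. List medians run from -1.90 for the tubulin rows to 0.63 for the gamma-tubulin ring.

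The genes most like the leading rows in pattern were found by Pearson's r of log2(RPKM + 1) over the 6 libraries, which share depth and stage and fall into 2 stages, so r is a description of the sorting of these libraries. For TUBA1C (first row) these were UPK1A (0.996), GPKOW (0.992) and KDELR1 (0.991), all below 10 RPKM on average in GV, and 123 genes reached 0.95. For TUBB2A these were MIP, ETFB and LSM2 (0.999, 0.999 and 0.998), and 999 genes reached 0.95. For TUBG1 these were NUDT21, COPS7B and KIAA1244 (0.998, 0.998 and 0.997), and 724 genes reached 0.95. A pattern like that of TUBA1C was thus shared by fewer genes in this table than the patterns of TUBB2A and TUBG1.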

How the data were processed

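Per the file headers, the authors deposited RPKM values of 6 libraries for 20707 Ensembl genes. Labels describe poly(A)-primed, amplified cDNA of single oocytes and single 50-nt reads. Per the labels, adapters were diluted 1 in 30 for GV14, 1 in 10 for GV15 and 1 in 50 for MII14c and MII15, so among these libraries the effect of dilution cannot be told apart from that of stage. The dilution of columns GV14c and MII15c is not known, and the sample titled MII14 (1 in 30, as GV14) matches no column. A deposited annotation gave coordinates, counted from 1. Not given in the sources used here are its build, the aligner and the counting tool. Depth was recovered by finding the read total that made low RPKM values of 3450 coding-only genes whole (98.6% to 100% within 0.1).

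Genes that averaged 1 RPKM or more were fitted with limma 3.58.1 in R 4.3.3 (lmFit, eBayes with trend) on log2(RPKM + 1), which was tested on simulated data. No count model was run. The tubulin rows and partner lists were chosen with earlier results of these data known. The naming rule took every tubulin row, tested rows of other tubulins, and per partner list up to 4 called genes of smallest p plus all calls of a direction with 3 or fewer. A gene in several rows is represented in the lists by its row of highest mean. Alternatives covered pseudocounts of 0.1 and 0.5, filters, scalings, eBayes without trend, library weights, a replicate block and leaving out libraries. The fit with the letter c was added after levels were seen. The labels do not say that the numbers 14 and 15 pair samples.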

Additional observations from a re-analysis of the deposited data

How the results depend on the processing

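Of 270 counts recomputed under an alternative, 209 stayed within 1.5 times the main count, or for sums within the spread, and 61 did not. Of 608 single-gene comparisons, 533 kept direction and side of the threshold, 63 lost the call, 7 gained it and 5 reversed. The cause of these shifts was not tested, except that fewer libraries enter where some are left out. Tubulin rows lower in MII numbered 5 without a filter on low values, 5 without both unmatched columns, and 5 to 9 when 1 library was left out (5 without GV14c or MII15c); with library weights 1 was higher. Scaling moved the median of all genes from -0.16 to 0.05 (median-ratio), 0.19 (quantile) and -0.07 (TPM). All genes lower numbered 1286 without the unmatched columns, and all genes higher 2057 with quantile normalization, 2262 with weights, 357 without the unmatched columns and 588 to 1335 when 1 library was left out (763 without GV14, 762 without GV15, 588 without MII15c). Other tubulins higher numbered 2 with median-ratio and quantile scaling, 3 with weights and 1 to 2 with a library left out. Folding genes higher numbered 2 with median-ratio, quantile, TPM and no trend, 3 with weights, and 1 to 2 with a library left out (2 without MII15). Modifying enzymes lower numbered 5 with the letter c; higher, they numbered 1 without a filter, 4 with the 3 scalings, no trend and weights, 0 without the unmatched columns, 1 without the rows annotated as another gene (chosen after seeing the data), and 1 to 2 with a library left out. Dynamics genes lower numbered 1 without a filter, with the 3 scalings and without the unmatched columns, 4 with weights, 5 with the letter c and 1 to 2 with a library left out; higher, they numbered 13 with median-ratio, 13 with quantile, 14 with weights, 2 without the unmatched columns and 4 to 11 with a library left out. Gamma-tubulin partners lower numbered 2 with no trend, weights and the letter c and 0 without the unmatched columns; higher, 1 without the unmatched columns. Direction reversed for TUBA1A with the letter c (-0.44) and for the second TUBA1C row with median-ratio scaling (0.0608), library weights (0.0278), without GV14c (0.17; -0.46 to 0.17 over the libraries left out) and without the unmatched columns (0.19). The alpha sum had log2 changes from -1.02 to -0.60 and the beta sum from -3.06 to -2.50.

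With the number 14 or 15 as a replicate block, 7 tubulin rows were lower (the calls of TUBA1C and TUBB were lost), 2 other tubulins were higher and 1 dynamics gene was lower. Deviations from the stage mean correlated at -0.008 and 0.330 between the libraries numbered 14 and at 0.427 and -0.226 between those numbered 15. Deviations within a stage depend on one another, since they share 1 mean. These values thus cannot decide whether the numbers pair the samples. Between libraries that are alike in having or lacking the letter c all 4 correlations were positive (0.067 to 0.427), and between unlike ones all 5 were negative (-0.409 to -0.008). For low rows depth limits the values: TUBA4A rests on 0 to 19 reads per MII library.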

Other observations

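The deposited annotation also notes, for transcripts, how many of the authors' reads supported each and how many of those were spliced. The supporting reads in this paragraph and the next are those of annotated transcripts, without the ones marked as predicted. Over 6452 genes with 1 annotated transcript and at least 1000 reads implied by RPKM, the supporting reads came to a median of 35.6% of the implied reads, with the middle 50% of genes between 12.8% and 64.9%. The alpha rows on chromosome 5 lay below this middle range: 1.00% for the first TUBA1C row (2720 of 271946 reads), 0.270% for the second, 2.06% for TUBA1A and 6.14% for TUBA1B. Of all these genes, 2.45% were lower than the first TUBA1C row, 0.620% lower than the second, 4.96% lower than TUBA1A and 13.6% lower than TUBA1B. The tested alpha rows on other chromosomes, with fewer than 1000 implied reads, had 57.5% for TUBA4A (ENSBTAG00000030974) and 67.9% for TUBA1B (ENSBTAG00000002169). The other tested rows with at least 1000 implied reads were near the median, at 37.2% for TUBB2A, 43.8% for TUBB4B, 39.1% for TUBB and 31.1% for TUBG1. What the support leaves out is not stated, and the cause of the low alpha values was not tested.

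Among the supporting reads of tubulin rows of 4 coding exons, spliced reads numbered 0 of 2720 for the first TUBA1C row, 1 of 5930 for TUBA1B, 0 of 1034 for TUBB2A, 0 of 684 for TUBB4B and 0 of 765 for TUBB. TUBA4A (ENSBTAG00000030974) had 6 of 317, TUBB3 32 of 2966 and TUBG1, with 11 coding exons, 135 of 2831. Among 481 genes of 4 coding exons with at least 500 supporting reads, 62 (12.9%) had at most 1 spliced read, and the median spliced share was 1.21%. Tubulin rows were not left out of these genes. In the tubulin genes of 4 coding exons, TUBB3 included, the last coding exon holds 72.2% to 79.5% of the coding length. Of 31 genes outside the listed symbols with at least 70% there, 5 (16.1%) had at most 1 spliced read. TUBB3 was not excluded from that set.

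The annotation holds 9 predicted transcripts of TUBG1, and all 9 run on to TUBG2 downstream, supported by 67 reads, all spliced. Of 2 predicted transcripts of TUBA1B, 1 reaches TUBA1A, 38829 nt away, with 441 reads of which 1 was spliced. The first TUBA1C row has 2 predicted transcripts, and both reach the second TUBA1C row, supported by 3 reads, all spliced. The reads are not given by library there, so no stage can be read from these transcripts.

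Low tubulin rows outside the listed symbols, chosen after their values were seen, also had most of their reads in libraries with the letter c. TUBB4A had 24 reads in GV14c, 3 in MII14c and 0 in the other 4 libraries. A TUBA3C row, ENSBTAG00000038258, had 9, 6 and 3 reads in GV14c, MII14c and MII15c and 0 in the other 3.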
